A study of Mus musculus with 4 samples.

Results

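Unfolded protein response genes were followed through spatial expression data from 4 mouse brain sections. The set was 10 genes named by symbol: Hspa5, Hsp90b1, Calr, Pdia4, Pdia6, Herpud1, Xbp1, Atf4, Ddit3 and Chac1. All 10 were found among the 32285 gene identifiers of the deposited matrix, under 11 identifiers, because Ddit3 was listed under 2. The second Ddit3 identifier (ENSMUSG00000116429) held 0 UMIs in every library, so Ddit3 below is ENSMUSG00000025408. Whether reads shared by the 2 annotated copies were dropped in counting was not stated.

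The sections came from female C57BL/6 mice of 2 ages, young (3 to 4 months) and aged (18 to 20 months). Mice were gavaged with water as vehicle or with ethanol at 3 g/kg, 10 times over 18 days, and brains were taken 18 hours after the last gavage. Left hemispheres were cut in the coronal plane at 10 µm, between bregma -2.0 and -2.2 mm, and placed on Visium slides, which capture RNA from spots that each cover several cells. Each age had 1 library per gavage. A difference between ages or between gavages therefore had no replicate, whereas regions could be compared within each of 4 libraries.

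The unfolded protein response adjusts the endoplasmic reticulum to its load of client proteins. Its sensors are IRE1, PERK and ATF6. IRE1 splices the Xbp1 messenger RNA into the form that encodes an active transcription factor, PERK favours translation of the transcription factor ATF4, and ATF6 is cut to release a transcription factor. ATF6 and XBP1 act on chaperone and degradation genes through the ER stress element (ERSE), and ATF4 acts on amino acid and stress genes, among them Ddit3 (CHOP) and Chac1. In the brain, the secretory epithelium of the choroid plexus and peptide-secreting neurons of the hypothalamus carry a high load of secreted protein. UMI counts of Xbp1 do not tell its spliced form from the unspliced one.

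Sequences before the annotated gene starts are shown for the 6 genes that held letters of elements known from this response. The promoter sequences came from RefSeq (GRCm38.p6), and all 10 genes matched. Each window searched ran from 250 bases before to 50 bases after the start, on both strands. The ERSE was searched as CCAAT and CCACG with 9 bases of any kind between them, ERSE-II as ATTGG and CCACG with 1 base between them, the core of the ATF4 composite site as TGATGCAA, and the XBP1-type UPR element as TGACGTGG. The ERSE and ERSE-II share CCACG, and ATTGG is CCAAT on the opposite strand. Only the part before the start is printed, in the direction of the gene, with the matched letters in capitals.
Hspa5: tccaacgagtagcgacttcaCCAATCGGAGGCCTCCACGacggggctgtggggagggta
Hsp90b1: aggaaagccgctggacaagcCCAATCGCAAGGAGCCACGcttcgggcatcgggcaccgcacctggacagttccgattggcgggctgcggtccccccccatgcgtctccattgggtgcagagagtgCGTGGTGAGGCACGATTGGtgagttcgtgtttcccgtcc
Calr: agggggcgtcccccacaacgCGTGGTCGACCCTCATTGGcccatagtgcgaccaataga
Pdia6: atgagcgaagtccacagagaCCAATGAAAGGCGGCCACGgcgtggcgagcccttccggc
Herpud1: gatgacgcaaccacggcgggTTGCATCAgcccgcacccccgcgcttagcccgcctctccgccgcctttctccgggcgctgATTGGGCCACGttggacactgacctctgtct
Chac1: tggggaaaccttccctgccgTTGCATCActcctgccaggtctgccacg

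The ERSE was found in 4 of the 10 promoters, those of Hspa5, Hsp90b1, Calr and Pdia6, and in 0.119% of all 32851 promoters in the table. The Hspa5 stretch lay at chr2:34772005-34772063 (plus strand), with the element at -65 to -47 from the start. The Hsp90b1 stretch lay at chr10:86705513-86705676 (minus strand) and held 2 matches, at -212 to -194 and, on the opposite strand, at -107 to -89. The Calr stretch lay at chr8:84847055-84847113 (minus strand), with the match on the opposite strand at -162 to -144. The Pdia6 stretch lay at chr12:17266471-17266529 (plus strand), with the match at -98 to -80. These 4 genes all encode chaperones or disulfide isomerases of the endoplasmic reticulum.

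The ATF4 core was found in 2 of the 10 promoters, those of Herpud1 and Chac1, and in 0.895% of all promoters. In Herpud1 (chr8:94386297-94386407, plus strand) it lay on the opposite strand at -112 to -105, and an ERSE-II followed at -52 to -42. ERSE-II was found in 0.0365% of all promoters. In Chac1 (chr2:119351029-119351076, plus strand) the ATF4 core lay on the opposite strand at -193 to -186. The UPR element was found in 0 of the 10 and in 0.676% of all promoters. Pdia4, Xbp1, Atf4 and Ddit3 held none of these letters in the window searched. A match is a description of the sequence only. Because the elements were already known from genes of this response, the shares beside all promoters are not a test.

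Spots with at least 500 UMIs were kept, 10942 of 11064, and the libraries summed to between 45995677 and 58305713 UMIs. Spots were clustered on genes that excluded the set and its pathway lists, and 15 of 27 clusters made up 14 regions named from marker genes. Clusters without a name, of up to 960 spots, entered no region value. In neocortex 5 of 16 markers (upper and deep layers together) were over 1.5-fold higher than outside it in every library. In piriform and amygdala 3 of 6 were. In the other regions most or all markers were, in each library with at least 10 spots there. A UMI is a molecular identifier that counts 1 captured transcript, and levels are given as CPM, counts per 1000000 UMIs of the region or section. The sections differed in plane: the thalamus region held 7.33% of spots under young vehicle, 13.7% under young ethanol, 7.73% under aged vehicle and 15% under aged ethanol, and a habenula region was present only in the 2 ethanol sections (30 and 25 spots). Gavage and plane of section therefore cannot be told apart. The library labelled aged ethanol stood apart in its share of mitochondrial UMIs (16.5%, against 13.6% to 14.3%) and in 880 UMIs of the immunoglobulin chain Igkc (13 to 89 in the others). A difference in a spot can come from more cells of a type or more RNA per cell, and these cannot be told apart.

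Across regions, the set did not vary as one group. The ER chaperones and isomerases were highest in the choroid plexus region, led by Ttr, Ecrg4 and Kcne2, whereas Atf4, Ddit3 and Chac1 had their lowest medians there. All 9 choroid plexus markers were detected in that region in each library, and they made up between 163976 and 278351 CPM. It held 24, 12, 24 and 11 spots in the libraries of young mice given vehicle, young given ethanol, aged given vehicle and aged given ethanol, the order used for every run of 4 values below.

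**Figure D1:**
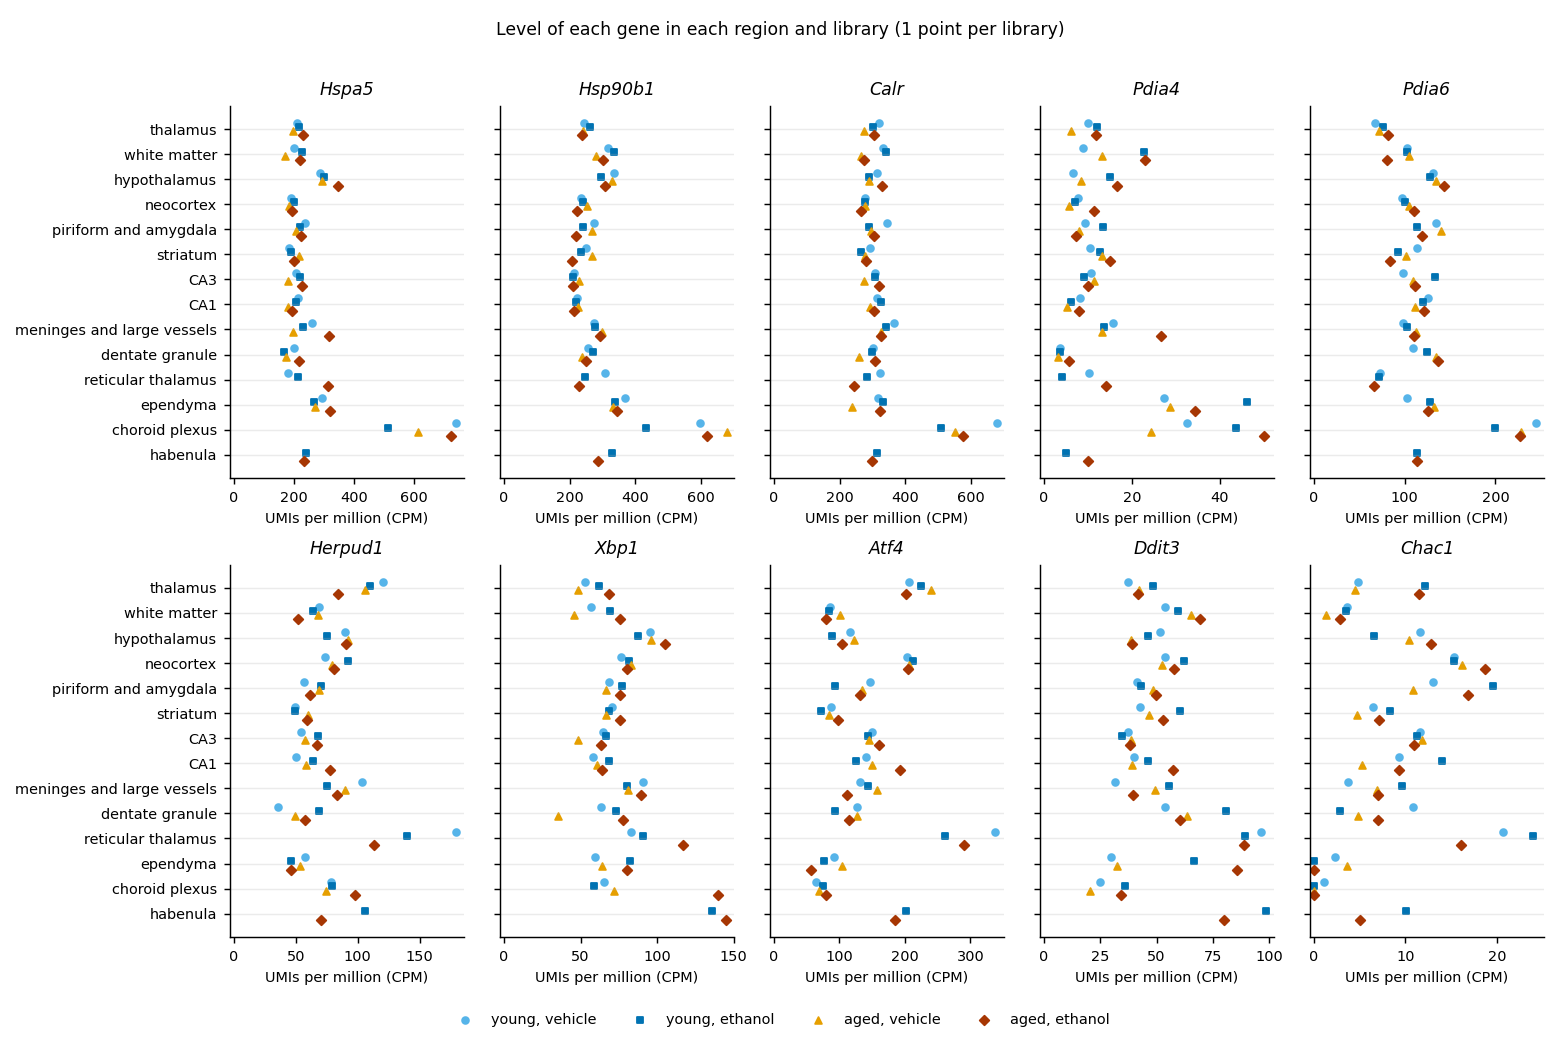
Level of each of the 10 genes (horizontal axis, CPM, from 0) in each of 14 regions (vertical axis), with 1 point per library and no error bars. Hspa5, Hsp90b1, Calr, Pdia4 and Pdia6 were highest in the choroid plexus region by their median, and Atf4, Ddit3 and Chac1 were lowest there; habenula values exist for the 2 ethanol libraries, and reticular thalamus values for 3 libraries.

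Hspa5 encodes BiP, the Hsp70 chaperone of the endoplasmic reticulum that also holds the stress sensors inactive. Its levels in the choroid plexus region were 741, 513, 613 and 725 CPM, against 192, 201, 184 and 195 CPM in the neocortex region led by Lamp5 and Ddit4l. Every choroid plexus value was above every neocortex value. The fitted log2 fold change was 2.09 (SE 0.09, 4 libraries, adjusted p = 2.5e-28), which is 4.26-fold. The fit rescaled the totals (TMM), which moved the median log2 fold change of all genes in this contrast up by 0.34 against total counts. Fitted changes in this contrast therefore lie higher than the ratios of the CPM values beside them. Fitted values and adjusted p-values between regions are from edgeR's quasi-likelihood test with Benjamini-Hochberg adjustment over 6602 genes, and a gene was called where adjusted p was under 0.05 and the fold at least 1.5. Apart from the set, the listed pathway genes and some cell type markers, only genes at even positions of the gene list were tested. No gene used for clustering was among them, and "all genes" in these contrasts means those 6602.

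Hsp90b1 encodes GRP94, the Hsp90 chaperone of the same compartment. It reached 596, 433, 678 and 617 CPM in the choroid plexus region, against 233, 241, 253 and 222 CPM in neocortex. The young ethanol library gave the lowest choroid plexus value, as it did for Hspa5. It also had the lowest choroid plexus markers in that region (163976 CPM, against 199478 to 278351). Its white matter markers there were the highest (12544 CPM, against 4181 to 9912). The part of this make-up in the gene values was not tested. The 2 regions did not overlap in Hsp90b1 (log2 fold change 1.64, SE 0.08, adjusted p = 1.2e-24). Calr, encoding the lectin chaperone calreticulin that folds glycoproteins and holds calcium, was at 679, 507, 551 and 575 CPM against 277, 277, 277 and 266 CPM. Its regions did not overlap either (1.42, SE 0.08, adjusted p = 6.3e-24).

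Pdia4 and Pdia6 encode protein disulfide isomerases. Pdia6 was at 245, 200, 228 and 227 CPM in the choroid plexus region and at 96.6, 99.8, 105 and 110 CPM in neocortex (log2 fold change 1.49, SE 0.09, adjusted p = 1.3e-20). Pdia4 had the largest fold of the set: 32.6, 43.6, 24.4 and 50.1 CPM against 7.79, 7.03, 5.71 and 11.4 CPM (2.54, SE 0.23, adjusted p = 2.8e-14). Those Pdia4 values rest on 29, 17, 18 and 19 UMIs in the choroid plexus region, and its SE was wider than that of the other 4 genes. No library's choroid plexus value fell within the neocortex range for either gene.

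Atf4, the transcription factor translated under PERK signalling, went the other way. It was at 64.0, 74.3, 69.2 and 79.1 CPM in the choroid plexus region and at 203, 212, 207 and 204 CPM in neocortex. The groups were apart in every library (log2 fold change -1.23, SE 0.13, adjusted p = 3.8e-12). Ddit3, encoding the pro-apoptotic factor CHOP, was at 24.7, 35.9, 20.4 and 34.3 CPM against 53.6, 62.2, 52.6 and 57.8 CPM (-0.70, SE 0.19, adjusted p = 0.0013).

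Chac1 encodes a glutathione-degrading enzyme and is a target of ATF4 and CHOP. In the choroid plexus region it was seen in a single UMI, in the young vehicle library, among 2397142 UMIs over the 4 libraries. At the neocortex level (573 UMIs in all) 38.7 UMIs would have been counted there. The ratio was 0.0258, with an exact 95% interval of 0.000652 to 0.144 that covers counting error only. The 3 libraries without a Chac1 UMI give only an upper limit, so the fitted change (-4.78, SE 0.75, adjusted p = 1.4e-07) depends on the prior count. The ependyma region, led by Tmem212 and Ccdc153, held 2 Chac1 UMIs where 17.6 would have been counted at the neocortex level (ratio 0.114, 0.0138 to 0.413).

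Xbp1 and Herpud1 did not follow the chaperones in the choroid plexus region. Xbp1 was at 65.1, 58.9, 71.9 and 140 CPM there, against 76.5 to 83.0 CPM in neocortex. Only the aged ethanol library lay above the neocortex range, and the others lay below it. Herpud1, which encodes a membrane protein of ER-associated degradation, was at 78.6, 79.4, 74.6 and 97.5 CPM against 73.9 to 92.1 CPM. Both had a fitted log2 fold change of 0.33 (SE 0.14) and were not called. That is about the size of the scaling shift of this contrast (0.34), so it is not read as a rise.

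In all, 5 of the 10 genes rose and 3 fell in the choroid plexus region against neocortex. Of all genes tested, 54.8% were called in this contrast, 29.0% higher and 25.9% lower, so the share of the set called in either direction stood above a high background. The median log2 fold change was 0.88 over the set and 0.01 over all genes. With scaling by total counts in place of TMM the median of all genes was -0.33, a shift of 0.34, and the same 8 genes were called with the same signs.

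Of 15 listed ER chaperones and co-chaperones, 13 rose in the choroid plexus region, among them Dnajc3 (log2 fold change 2.65), a J-domain partner of BiP, Sil1 (2.40), its nucleotide exchange factor, and Manf (1.83), a secreted ER-resident protein. Of 11 disulfide isomerases and oxidases 9 rose, including Prdx4 (1.95) and Pdia3 (1.71), and of 15 degradation genes 8 rose, including Derl2 (1.41) and Edem2 (1.31). Median log2 fold changes were 1.42, 1.49 and 0.66 in these 3 lists. The lists hold the set itself where it belongs to them; without it, 44 of 82 listed genes rose and 7 fell, with a median of 0.64 against 0.01 over all genes.

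In the IRE1 and XBP1 list, 9 of 16 genes rose and 2 fell. The ER stress transducers Creb3l1 (3.72) and Creb3l2 (2.43) and the COPII coat gene Sec24d (2.56) had the largest changes, and Spcs3 (-1.22), a signal peptidase subunit, fell. The PERK and ATF4 list was split, with 9 of 25 higher and 7 lower. Asns, encoding asparagine synthetase, an ATF4 target, fell from 125 ± 8.43 CPM (mean ± SD, 4 libraries) to 12.8 ± 6.20 CPM (log2 fold change -3.06). Phgdh (1.72), of serine synthesis, and Ppp1r15a (1.58), of eIF2α dephosphorylation, rose. Of 6 cell death genes tested 1 changed, Pmaip1 (-2.97), which was at 0.641 ± 1.28 CPM in the choroid plexus region.

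White matter, with C4b and Opalin among its leading genes, shared the low Atf4 and Chac1 of the choroid plexus region. The chaperone genes of the set, Hspa5, Hsp90b1 and Calr, were not called there. Atf4 was at 85.6, 84.2, 101 and 80.1 CPM (log2 fold change against neocortex -1.18, SE 0.10, adjusted p = 2.1e-16). Chac1 was at 3.58, 3.51, 1.31 and 2.82 CPM, from 25 of 8525420 UMIs (-2.41, SE 0.28, adjusted p = 3.1e-11). Neither gene overlapped its neocortex range.

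Pdia4 was the 1 gene of the set that rose in white matter, at 8.96, 22.8, 13.1 and 23.0 CPM (log2 fold change 1.16, SE 0.19, adjusted p = 2.8e-07), and its range overlapped that of neocortex. Hspa5 was at 201, 226, 171 and 219 CPM, close to neocortex (0.16, SE 0.09, adjusted p = 0.097). Hsp90b1 was higher in all 4 libraries (280 to 336 CPM) but at 1.37-fold it was under the fold that a call needed. Of all genes 53.3% were called in this contrast, 24.2% higher and 29.1% lower, so 1 higher and 2 lower of 10 is a smaller share than among all genes.

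Other pathway genes moved more in white matter. Psat1 (2.95) and Phgdh (2.87), enzymes of serine synthesis that are abundant in glia, rose, with Phgdh at 310 ± 29.6 CPM against 44.3 ± 4.05 CPM. Ddit4 (2.17), Creb3l2 (2.16), Edem2 (1.84) and Edem1 (1.59) rose too, and Asns (-1.94) fell as it did in the choroid plexus region. Of the chaperone list 3 of 15 rose and 0 fell: Sdf2l1 (1.01), Dnajc3 (0.96) and Sil1 (0.94). Of 11 isomerases and oxidases 3 rose, among them P4hb (1.16), and 2 fell. Over all lists without the set, 25 of 82 genes rose and 8 fell (median 0.23, against -0.10 over all genes and 0.08 over the set).

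The hypothalamus region, led by Hcrt, Oxt and Pmch, was second to the choroid plexus region in median Hspa5, ahead of the ependyma by less than their spread. Hspa5 was at 286, 300, 295 and 349 CPM there, all above the neocortex range (log2 fold change 0.68, SE 0.08, adjusted p = 3.4e-10). Atf4 was at 116, 88.9, 122 and 104 CPM, all below that range (-0.95, SE 0.09, adjusted p = 1.4e-13). Chac1 fell to 11.6, 6.59, 10.4 and 12.8 CPM (-0.70, SE 0.19, adjusted p = 0.0017). Pdia4 rose by 0.60 (SE 0.18, adjusted p = 0.0050) with values of 6.67, 15.1, 8.50 and 16.7 CPM, high in the 2 ethanol libraries and low in the 2 vehicle ones.

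The Pdia4 and Chac1 calls in hypothalamus rest on the young ethanol library. Without it the Pdia4 log2 fold change was 0.33 (adjusted p = 0.23) and that of Chac1 was -0.57 (adjusted p = 0.016), under the required fold. Without the aged vehicle library Pdia4 was at 0.58, also under that fold. Of all genes 30.3% were called in this contrast, 17% higher and 13.3% lower, against 2 higher and 2 lower of the 10. Xbp1 (0.26), Hsp90b1 (0.42) and Pdia6 (0.39) were each higher in all 4 libraries without reaching the fold. Of the chaperone list 5 of 15 rose, among them Sil1 (1.08) and Hyou1 (0.88). Of the isomerase list 5 of 11 rose, led by Tmx1 (0.98), and of the sensor list 3 of 6 fell, led by Atf6 (-1.42) at 10.5 ± 3.43 CPM against 29.3 ± 0.846 CPM.

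The thalamus region, led by Gbx2, Prkcd and Shox2, kept Atf4 at the level of neocortex: 207, 224, 240 and 201 CPM, with overlapping ranges (log2 fold change 0.15, SE 0.08, adjusted p = 0.14). Chac1 was nevertheless lower there, at 4.82, 12.1, 4.48 and 11.5 CPM, and was the 1 gene of the set called (-0.79, SE 0.18, adjusted p = 0.00025), in a contrast that called 29.3% of all genes, 16.3% higher and 13.0% lower. Herpud1 was at 120, 110, 106 and 83.7 CPM, higher than neocortex in all 4 libraries (0.41, SE 0.09, adjusted p = 0.00016) but at 1.33-fold. Xbp1 (-0.40), Pdia6 (-0.38) and Ddit3 (-0.35) were lower in all 4 libraries, also under the required fold. Among other genes Ero1lb, an ER oxidase, had the largest rise of the isomerase list (1.43; 45.1 ± 8.12 against 16.9 ± 2.01 CPM).

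The highest levels of several transcription factor genes lay in small regions that could not be fitted. In the reticular thalamus region, led by Six3 and Pvalb, with 18, 42, 4 and 32 spots, Atf4 was at 338 CPM under young vehicle, 262 under young ethanol and 290 under aged ethanol, above all other regions by its median. Herpud1 was at 179, 140 and 113 CPM and Chac1 at 20.7, 24 and 16.1 CPM in the same 3 libraries, again the highest medians. The Chac1 values rest on 6, 18 and 8 UMIs, and their spread overlaps that of the neocortex region, which came second.

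Ddit3 was at 96.5, 89.4 and 88.8 CPM in the reticular thalamus and at 98.4 and 80.1 CPM in the habenula region, led by Gpr151 and Gng8, of the 2 ethanol libraries. These 2 regions did not differ beyond their spread. Xbp1 was highest in the habenula, at 136 and 145 CPM, above the hypothalamus (87.7 to 105 CPM). In the ependyma Pdia4 was at 27.4, 46.2, 28.6 and 34.4 CPM, within the range of the choroid plexus region, and Hsp90b1 at 332 to 368 CPM was second to it.

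Within the hippocampus the set differed little between CA3 (led by Homer3 and Cldn22) and CA1 (led by Lefty1 and Fibcd1). The 1 gene called, Pdia4, was at 10.6, 9.18, 11.4 and 10.1 CPM in CA3 and 8.26, 6.15, 5.21 and 7.88 CPM in CA1. The ranges were apart, but the log2 fold change of 0.75 (SE 0.28) had an adjusted p of 0.041, and the call was lost without any 1 of the 4 libraries (adjusted p 0.058 to 0.34). Of all genes 12.5% were called in this contrast, 7.24% higher and 5.26% lower. Log2 fold changes of the other 9 lay between -0.19 (Ddit3) and 0.42 (Chac1).

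The dentate granule region, led by Dsp and C1ql2, was lower than CA3 in Pdia4 (3.59, 3.75, 3.18 and 5.62 CPM; log2 fold change -1.72, SE 0.36, adjusted p = 0.00011). It was also lower in Chac1 (10.8, 2.81, 4.77 and 7.02 CPM; -1.24, SE 0.35, adjusted p = 0.0033). The Pdia4 values rest on 17 UMIs in all and the Chac1 values on 25. Atf4 was at 127, 93.8, 127 and 114 CPM, below both CA3 (143 to 161 CPM; -0.69, SE 0.11, adjusted p = 1.2e-06) and CA1 (125 to 192 CPM; -0.63, SE 0.11, adjusted p = 6.7e-06).

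Of all genes 27.5% were called against CA3 (11.4% higher, 16.1% lower) and 20.0% against CA1 (9.57% and 10.5%), beside 3 and 1 of the 10, all lower. Total-count scaling put the median of all genes at 0.20 in place of -0.11 (against CA3) and at 0.17 in place of -0.05 (against CA1), and left Atf4 under the required fold in both (-0.38 and -0.41). Atf4 also fell short of it without the young ethanol library against CA3 (-0.57) and without the aged ethanol library against CA1 (-0.48). Of other pathway genes Bbc3, encoding the pro-apoptotic protein PUMA (32.1 ± 6.72 against 4.81 ± 0.769 CPM), and Cebpb, a transcription factor (112 ± 20.8 against 18.9 ± 4.10 CPM), rose against CA3, and Edem1 (-1.79), of ER-associated degradation, fell.

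**Figure D2:**
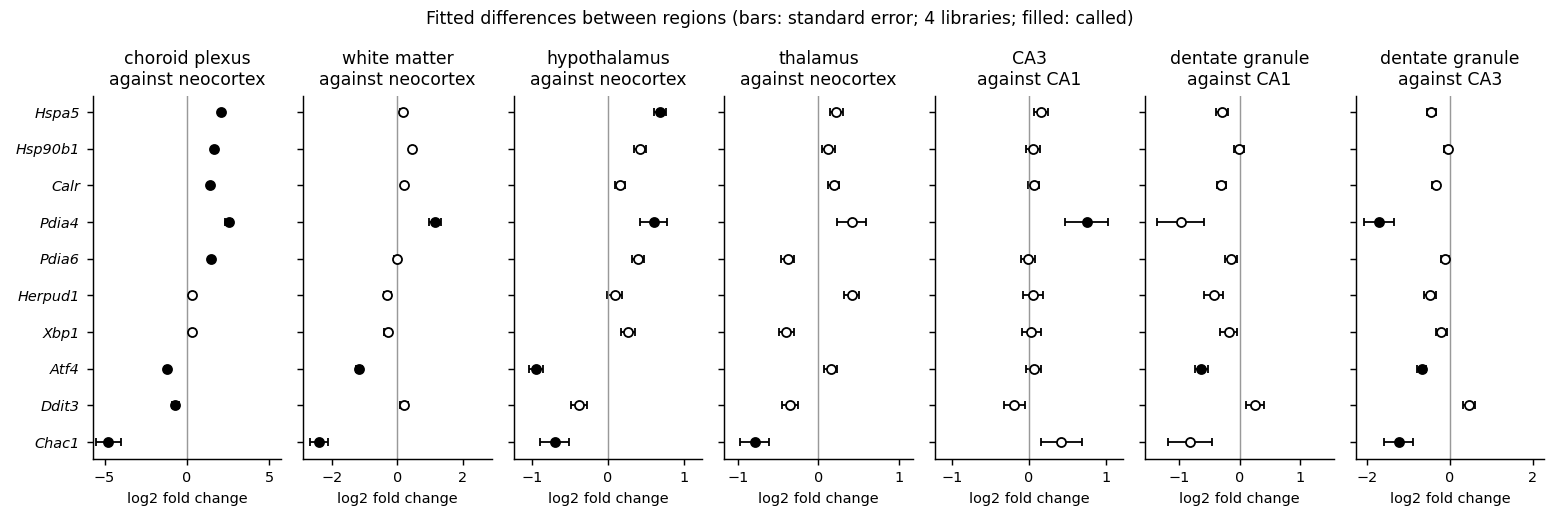
Fitted log2 fold change of the 10 genes (rows) in 7 contrasts between regions (panels, each with its own horizontal scale), with the standard error from the fit to 4 libraries. Filled points were called (adjusted p under 0.05 and at least 1.5-fold). In the choroid plexus panel 5 genes lie to the right and 3 to the left, from 2.54 (Pdia4) to -4.78 (Chac1); white matter and hypothalamus share the low Atf4 and Chac1.

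The genes were also compared over 22 clusters in 4 libraries (88 points that share libraries and depth). With levels on a log2 scale centred within each library, Hspa5 correlated with Hsp90b1 (r = 0.90), Calr (0.83), Pdia6 (0.73) and Pdia4 (0.64). Its correlation with Atf4 was -0.44, with Ddit3 -0.49 and with Chac1 -0.57. Atf4 and Chac1 went together (0.69), and Atf4 and Ddit3 less so (0.26).

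The choroid plexus cluster carried part of this pattern. Without it, over 84 points, Hspa5 still went with Hsp90b1 (0.73), but its correlation with Calr was 0.41, with Pdia6 0.44 and with Pdia4 0.46. Its correlations with Atf4 (-0.24), Ddit3 (-0.22) and Chac1 (-0.19) were nearer to 0, and that of Hsp90b1 with Ddit3 went from -0.28 to 0.15. Atf4 and Chac1 remained at 0.64. These are descriptions over clusters, not tests.

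Of 13715 genes compared, those most like Hspa5 by this measure were Hsp90b1, Nucb1, Manf, Pdia3 and Ace, at 0.84 to 0.90, where the median gene was at -0.11. Pdia3 encodes an isomerase of the same compartment. Among the genes most like Atf4 were Pitpna, Atp2a2, Rap1gds1 and Nceh1, at 0.82 to 0.85, where the median gene was at 0.14. Atp2a2 encodes the calcium pump of the endoplasmic reticulum.

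Over whole sections, the set was nearly level between the 4 libraries. None of the 10 genes passed 1.5-fold in any of the 4 comparisons of gavage or age. With 1 library per group there was no test, and intervals cover counting error only. Among all genes that reached 50 UMIs in either library, 3.64% were 1.5-fold higher and 2.48% lower under young ethanol, 2.61% and 3.95% under aged ethanol, 1.20% and 0.776% in aged over young vehicle, and 0.998% and 1.85% in aged over young ethanol. The comparisons share libraries and are not independent.

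Pdia4 came nearest to the rule. It was at 9.71 CPM under young vehicle, 11.3 under young ethanol, 8.87 under aged vehicle and 13.0 under aged ethanol. The ratio of ethanol to vehicle was 1.16 (95% interval 1.04 to 1.31) in young and 1.47 (1.29 to 1.67) in aged mice, the latter at or above 1.5 under 3 other ways of scaling the sections. Both ethanol libraries were above both vehicle libraries. With the same weight given to each cluster, so that the sections' share of each region was matched, the ratios were 1.25 and 1.5.

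Ddit3 was at 47.1, 54.8, 46.9 and 52.1 CPM, with ratios of 1.16 (1.10 to 1.23) and 1.11 (1.05 to 1.18). Chac1 was at 10.5, 11.5, 9.35 and 11.5 CPM, with ratios of 1.10 (0.980 to 1.23) and 1.23 (1.08 to 1.39). For Xbp1 the values were 71.1, 74.0, 68.0 and 78.5 CPM, with ratios of 1.04 (0.996 to 1.09) and 1.15 (1.10 to 1.21). Each of these was higher in both ethanol libraries than in both vehicle libraries, by less than 1.5-fold.

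Hspa5 was at 228, 226, 208 and 234 CPM, so that the aged vehicle library was the low one: ethanol over vehicle was 0.990 (0.966 to 1.01) in young and 1.13 (1.10 to 1.16) in aged mice. Hsp90b1 was at 269, 259, 268 and 249 CPM and Calr at 315, 298, 288 and 299 CPM. Pdia6 was at 112, 105, 113 and 111 CPM, Herpud1 at 71.4, 79.6, 74.7 and 72.5 CPM, and Atf4 at 151, 156, 155 and 154 CPM. Hsp90b1 and Pdia6 were lower in both ethanol libraries than in both vehicle libraries, with ratios of 0.963 and 0.930 for Hsp90b1 and 0.934 and 0.980 for Pdia6. For Hspa5, Calr, Herpud1 and Atf4 the ratio of ethanol to vehicle was below 1 at 1 age and above 1 at the other. The aged ratios of Herpud1, Pdia6 and Atf4 were within 0.05 of 1 and crossed it under other scalings (1.02, 1.03 and 1.05 with median-of-ratios size factors).

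**Figure D3:**
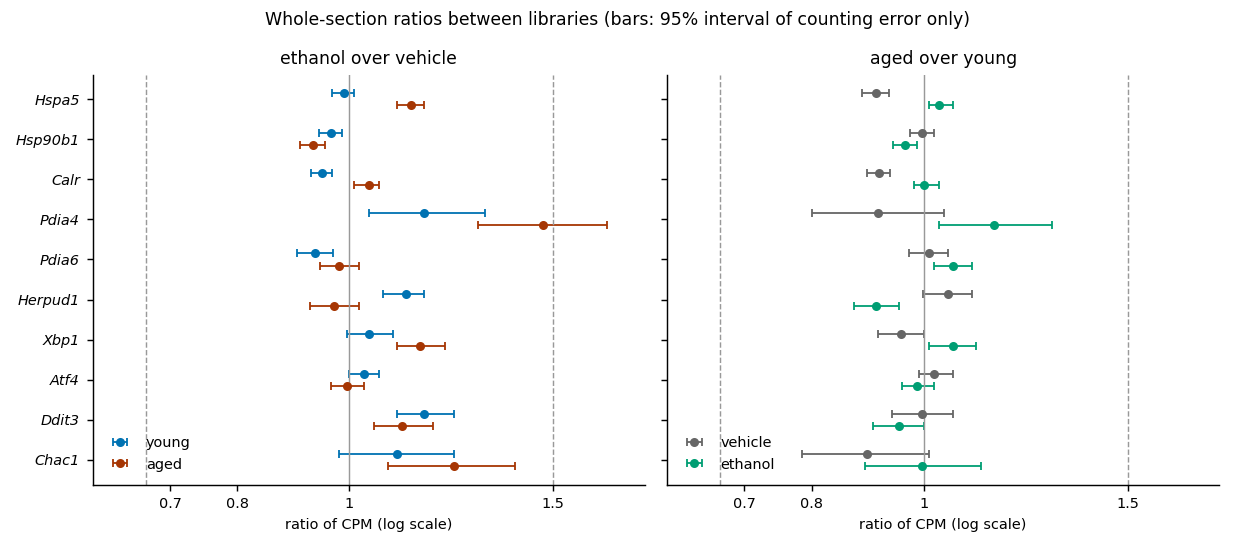
Ratio of CPM over whole sections for the 10 genes (log scale), ethanol over vehicle at each age on the left and aged over young at each gavage on the right; bars are 95% intervals of counting error, and dashed lines mark 1.5-fold in either direction. All points lie between the dashed lines, with Pdia4 in aged mice nearest at 1.47.

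Within regions, more of the set departed from the section averages. Among pairs of gene and region that reached 50 UMIs in either library, 6 of 105 pairs were 1.5-fold higher and 1 lower under ethanol in young mice (5.71% and 0.952%). In aged mice 9 of 96 pairs were higher and 0 lower (9.38% and 0%). The shares for all genes over the same regions were 3.68% higher and 4.25% lower in young, and 3.69% and 4.92% in aged mice. Low genes enter such counts only where 1 library is high, which favours a difference, and the pairs of a gene share their sections.

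Pdia4 accounted for 2 of the pairs in young and 4 in aged mice. In white matter it was at 8.96 CPM under young vehicle and 22.8 under young ethanol (ratio 2.54, 1.49 to 4.50), and at 13.1 and 23.0 CPM in aged mice (1.75, 1.04 to 3.08). In the hypothalamus region it was at 6.67 and 15.1 CPM in young (2.27, 1.28 to 4.30) and at 8.50 and 16.7 CPM in aged mice (1.96, 1.19 to 3.34). Both ethanol libraries were above both vehicle libraries in these 2 regions. Of all genes, 3.85% (young) and 5.20% (aged) were 1.5-fold higher in white matter, and 3.39% and 3.83% in hypothalamus.

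In aged mice Pdia4 was also higher in neocortex, at 5.71 and 11.4 CPM (ratio 2.00, 1.34 to 3.02), and in thalamus, at 6.11 and 11.9 CPM (1.95, 1.09 to 3.70). The young thalamus gave 10.1 and 12.0 CPM, under the rule and with an interval that included 1 (1.19, 0.742 to 1.97). The young neocortex gave 7.79 and 7.03 CPM, the other way. No other region reached 50 Pdia4 UMIs in these comparisons. The white matter values rest on 20, 52, 20 and 57 UMIs.

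Glial markers moved with Pdia4 in white matter. The summed level of 9 microglia markers, all detected in each library, was 1241, 3279, 1370 and 2367 CPM there, and that of 6 reactive astrocyte markers was 560, 1434, 789 and 1231 CPM. In the hypothalamus region the microglia markers were at 403, 612, 483 and 794 CPM and the reactive astrocyte markers, 4 or 5 of 6 detected, at 56.4, 146, 119 and 236 CPM. In the thalamus region they were at 504, 801, 505 and 713 CPM and at 78.0, 93.3, 61.1 and 127 CPM. In the neocortex region, where Pdia4 differed in aged mice, the microglia markers were at 418, 491, 417 and 450 CPM. The reactive astrocyte markers there were at 35.2, 54.5, 47.2 and 44.4 CPM, lower under aged ethanol than under aged vehicle. The part of these cells, and of the plane of section, in the Pdia4 values was not tested.

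Chac1 in the thalamus region followed gavage at both ages: 4.82 and 12.1 CPM in young (ratio 2.51, 1.34 to 5.22) and 4.48 and 11.5 CPM in aged mice (2.56, 1.33 to 5.43). It rests on 11, 86, 11 and 55 UMIs, and 5.51% (young) and 6.08% (aged) of all genes were 1.5-fold higher in that region. The region held 199, 395, 209 and 397 spots, and white matter markers in it were at 11341, 7895, 11413 and 7995 CPM, so its make-up also moved with gavage. The thalamus markers themselves were at 3720, 3518, 3921 and 3606 CPM. The part of the region's make-up and of the glial markers given above in the Chac1 values was not tested. Chac1 was level in neocortex (15.3, 15.3, 16.2 and 18.7 CPM), the named region with the most Chac1 UMIs (573).

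Xbp1 was higher under ethanol in aged mice in 3 regions. In white matter it was at 56.9, 69.3, 45.8 and 75.7 CPM (aged ratio 1.65, 1.25 to 2.21). In the dentate granule region it was at 63.5, 73.2, 35.0 and 77.9 CPM (2.23, 1.40 to 3.70), where the aged vehicle library stood low, also against young vehicle (0.551, 0.319 to 0.922). The aged values there rest on 22 UMIs under vehicle and 111 under ethanol. In the choroid plexus region the aged ethanol library stood high, at 140 CPM from 53 UMIs in 11 spots (1.94, 1.3 to 2.90, over aged vehicle, and 2.37, 1.43 to 4.05, over young ethanol).

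Xbp1 is also a factor of plasma cells, so their markers are given beside it. In the choroid plexus region 10 plasma cell markers summed to 24.7, 15.4, 20.4 and 23.7 CPM, with 13, 3, 4 and 5 UMIs of Igkc. In white matter they summed to 4.03, 2.19, 4.58 and 89.4 CPM, with 200 of the aged ethanol UMIs from Igkc. In the dentate granule region they were at 0, 0, 1.59 and 3.51 CPM. Their part in the white matter value was not tested.

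Hspa5 passed 1.5-fold in 1 pair, the region of meninges and large vessels (led by Fmod and Slc6a13) in aged mice, although the labels state that meninges had been removed. It was at 261, 232, 197 and 316 CPM there (ratio 1.60, 1.35 to 1.91). Plasma cell markers in that region summed to 12.1, 26.6, 13.1 and 382 CPM, with 0, 19, 0 and 301 UMIs of Igkc, 1, 1, 0 and 17 of Jchain and 0, 1, 1 and 2 of Mzb1; between 4 and 6 of the 10 were detected. Their part in the Hspa5 value was not tested.

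The other pairs were spread over single regions. Ddit3 was at 31.6, 55.5, 49.2 and 39.4 CPM in the region of meninges and large vessels (young ratio 1.76, 1.15 to 2.73). Herpud1 was at 35.9 and 68.5 CPM in the young dentate granule region (1.91, 1.23 to 3.02). Atf4 was lower in the young piriform and amygdala region, led by Lypd1 and Cyp26b1, at 146 and 93.2 CPM (0.638, 0.497 to 0.809), a region with 165 spots under vehicle and 35 under ethanol. Chac1 in the same region was at 13.0 and 19.6 CPM, with an interval that included 1 (1.51, 0.817 to 2.64). None of these 4 passed the rule in the same region in aged mice, where Chac1 had under 50 UMIs.

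**Figure D4:**
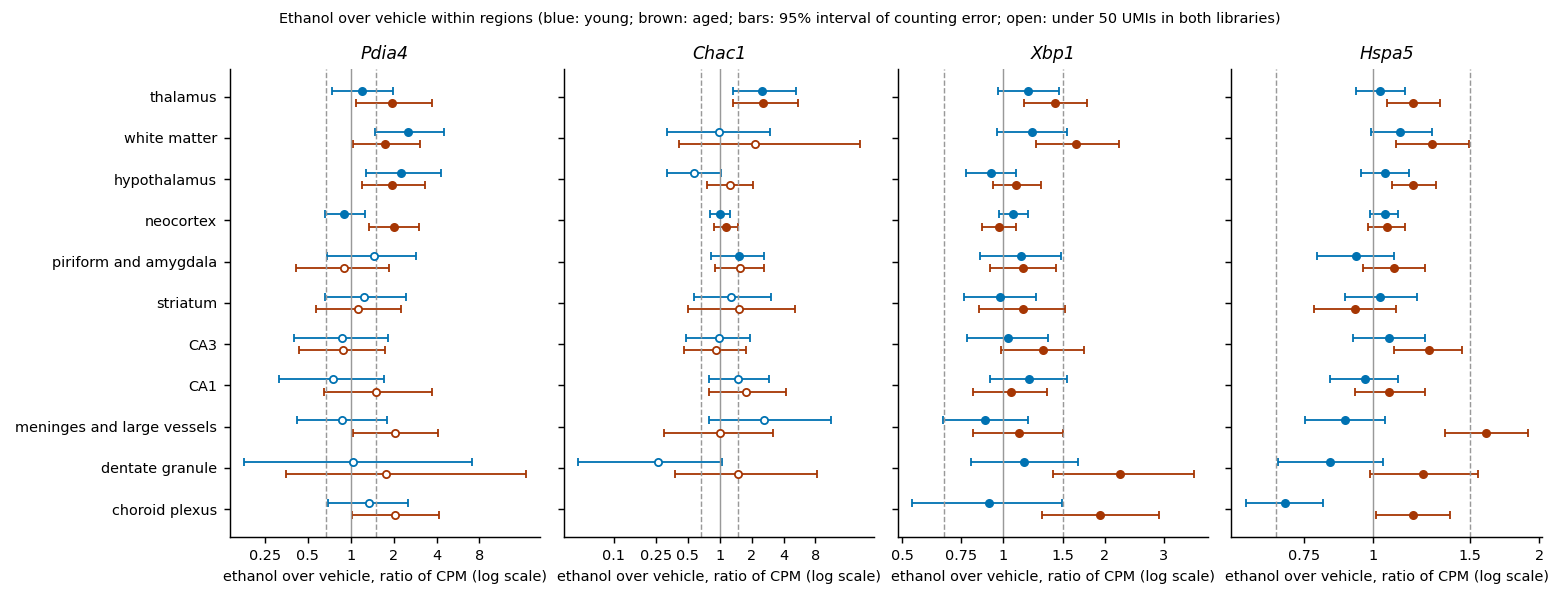
Ethanol over vehicle within 11 regions for Pdia4, Chac1, Xbp1 and Hspa5 (ratio of CPM on a log scale, each panel with its own range); bars are 95% intervals of counting error, dashed lines mark 1.5-fold, and open points had fewer than 50 UMIs in both libraries. Pdia4 lies to the right at both ages in white matter (2.54 and 1.75) and hypothalamus (2.27 and 1.96), and Chac1 in thalamus (2.51 and 2.56); pairs with a library at 0 are not drawn. In these Pdia4 and Chac1 pairs only the ethanol library reached 50 UMIs.

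Age differences were fewer. Over regions, 1 of 91 pairs of the set was higher and 1 lower in aged over young vehicle (1.10% each), and 3 of 110 were higher and 1 lower in aged over young ethanol (2.73% and 0.909%). All genes gave 2.11% and 2.48% under vehicle and 2.13% and 3.62% under ethanol. Atf4 in CA1 was at 125 CPM under young ethanol and 192 under aged ethanol (ratio 1.53, 1.3 to 1.81), while the vehicle libraries were at 141 and 149 CPM. Pdia4 in neocortex was at 7.03 and 11.4 CPM under ethanol (1.62, 1.18 to 2.24). The lower pair under ethanol was Herpud1 in the habenula region, at 106 and 70.1 CPM (0.661, 0.415 to 1.02). The higher pair under vehicle was Ddit3 in the region of meninges and large vessels, at 31.6 and 49.2 CPM (1.56, 1.01 to 2.44).

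The pathway lists as a whole were level between aged ethanol and aged vehicle, with a median log2 ratio of -0.00 against -0.07 over all genes. Single ER folding genes, chosen here after their values were seen, went either way. Canx, encoding calnexin (0.985, 0.963 to 1.01), and Dnajb11, a co-chaperone of BiP (0.986, 0.927 to 1.05), were level, and Cnpy2 was lower (0.777, 0.740 to 0.815). Hyou1, which encodes an ER chaperone of the Hsp70 family, was at 30.8, 28.2, 22.8 and 39.1 CPM over the section (aged ratio 1.71, 1.59 to 1.85). It passed 1.5-fold in 6 of 8 regions measured in aged mice, up to 3.69 in white matter (8.51 and 31.4 CPM). Of all pairs of gene and region in that comparison, 3.69% were 1.5-fold higher and 4.92% lower. Canx passed in 0 of 12 regions, and Cnpy2 was lower in 2 of 11 and higher in 0. In young mice the Hyou1 ratios in 7 regions lay on both sides of 1 (median 0.990), and 0 passed 1.5-fold. They ran from 0.732 (0.614 to 0.871), in neocortex, to 1.49.

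Pdia3, an isomerase that works with calreticulin on glycoproteins, was at 109, 114, 84.2 and 121 CPM over the section (aged ratio 1.44, 1.38 to 1.5) and passed 1.5-fold in 7 of 11 regions. Sdf2l1, a BiP-associated protein, was at 12.5, 13.9, 9.33 and 15.7 CPM (1.68, 1.49 to 1.90) and passed it in 3 of 3. A gene this low was measured only where a library reached 50 UMIs, which favours a difference. For both Pdia3 and Sdf2l1, aged ethanol over young ethanol was near 1, at 1.07 and 1.13, whereas aged over young vehicle was 0.769 (0.738 to 0.801) and 0.749 (0.661 to 0.847). Slc7a5, an amino acid transporter under ATF4 control, showed this most: 18.3, 16, 7.63 and 16.9 CPM, with 0.416 (0.367 to 0.470) in aged over young vehicle and 2.21 (1.95 to 2.51) in ethanol over vehicle in aged mice.

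Of all listed genes, the set included, the share past 1.5-fold over the section was near or below that of all genes. In young mice 3 of 94 were past it under ethanol, all higher, beside 3.64% higher and 2.48% lower of all genes: Derl3 (1.89), a retrotranslocation gene, the stress factor Atf3 (1.67) and the pro-apoptotic Pmaip1 (1.57). In aged mice 5 of 95 were, all higher, beside 2.61% and 3.95%: Casp12 (3.76, from 15 and 59 UMIs), Slc7a5, Hyou1, Sdf2l1 and Derl3 (1.53). In the higher direction alone, that share was above the one of all genes. Atf3 was lower under ethanol in aged mice (0.697, 0.546 to 0.886): it was at 1.34, 2.25, 3.61 and 2.51 CPM, highest under aged vehicle, which was 2.68 times young vehicle.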

How the data were processed

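The authors deposited one matrix of UMI counts per gene and spot for 4 Visium libraries. Per the file headers Space Ranger 1.3.1 made it, but the submitters' processing notes name Space Ranger 2.0.0 and mm10; subsampling between libraries and the annotation release are not given in the sources used here. The deposited counts were used unscaled, and spots were tied to libraries by the letter in each deposited barcode.

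Spots of at least 500 UMIs were clustered (Leiden, resolution 1, 30 components, 15 neighbours, 1573 features that left out the set and pathway genes) into 27 clusters, 15 of which formed 14 named regions. Libraries shared barcodes (1205 in all 4), which are positions on the slide. Counts were summed per region and library. Between regions, edgeR 4.0.16 (quasi-likelihood, TMM, filterByExpr, library as a block) used the 4 libraries, which differ in age and gavage, as replicates. All named regions but the reticular thalamus and habenula were in the same fit and shared its estimate of spread. With the library block, p-values measure how much differences between regions varied between sections. SE values were derived from each log2 fold change and its test statistic. Whether each library was a separate animal is not stated. DESeq2 1.42.0 was an alternative. Scripts were tested on simulated data. Between libraries, CPM ratios carried exact conditional binomial 95% intervals, with a rule of 1.5-fold and at least 50 UMIs. Single-library floors are 3 UMIs, 0.0515 to 0.0652 CPM over a section.

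Members and the 7 pathway lists (99 of 102 genes found) were chosen with earlier results of these data known. The text names all members, up to 4 called or passing genes per list, and the 5 genes most like Hspa5 and Atf4, of which 1 is not reported here; the Hyou1, Pdia3, Slc7a5, Sdf2l1 and Atf3 series of values, and hippocampal examples, were picked from these after their values were seen.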

Additional observations from a re-analysis of the deposited data

How the results depend on the processing

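No called result changed direction; some section ratios near 1 crossed it, such as Atf4 under young ethanol, 0.965 with equal cluster weights. The choroid plexus calls of the set (8 genes) and the white matter calls kept their signs under DESeq2, no count filter, no library block, mitochondrial genes left out, Leiden resolution 1.5, total-count scaling (chosen after seeing the data) and each library left out; at 2-fold Ddit3 was no longer called in choroid plexus. In CA3 against CA1 the number of members called was 0 in place of 1 under DESeq2, without a count filter, without the replicate block, without mitochondrial genes, with total-count scaling, at 2-fold and with each library left out (0 to 0), and pathway genes called were 3 with total-count scaling. In dentate granule against CA1 it was 0 in place of 1 at Leiden resolution 1.5, with total-count scaling, at 2-fold and without the aged ethanol library (0 to 1). In hypothalamus against neocortex it ranged from 2 to 4 when a library was left out. Without the replicate block, which paired regions by section, no other number of calls moved by over 1.5 times.

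At 2-fold, genes called were 383 (CA3 against CA1), 716 and 955 (dentate granule against CA1 and CA3), 1102 (thalamus) and 1051 (hypothalamus). Members called were 0 in thalamus and 0 in hypothalamus. Pathway genes called were 0, 9 and 9 in the hippocampal contrasts, 19 in white matter, 6 in thalamus, 8 in hypothalamus and 38 in choroid plexus. Between libraries, 2-fold left 318, 239, 51 and 71 genes (young gavage, aged gavage, age under vehicle, age under ethanol) and 0, 2 and 0 pathway genes (young gavage, aged gavage, age under ethanol). With at least 20 UMIs, 1455, 1490, 665 and 828 genes passed.

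Under aged ethanol 1 member, Pdia4, passed 1.5-fold without mitochondrial genes, with median-of-ratios size factors and with equal cluster weights. Within regions, Leiden resolution 1.5 and totals without mitochondrial genes left each ratio of the set past 1.5-fold within its counting interval. Depth limits Pdia4 and Chac1 most, which had under 100 UMIs in most regions and libraries.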
